A study of Homo sapiens with 6 samples.

Results

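The genes examined here are those that write, maintain and remove 5-methylcytosine, the methylated base of CpG dinucleotides. DNMT1, DNMT3A and DNMT3B are the DNA methyltransferases, UHRF1 recruits DNMT1 to newly replicated DNA, TET1, TET2 and TET3 oxidise the methyl group, and TDG excises the oxidised bases. They were listed by name, 8 genes in all, and 7 of them were matched to a row of the count table, which holds 57905 genes. UHRF1 could not be matched by symbol and identifier with the tables used and was not analysed here, although the count table holds a row that may carry an older identifier of it, which no table used pairs with the name. RNA-SEQ libraries were made from NALM6 cells treated for 24 h with the solvent DMSO (3 libraries) or with 500 nM of THZ1 (3 libraries). NALM6 is an established human leukemia line of the B cell precursor kind. THZ1 binds covalently to CDK7, a kinase that acts on RNA polymerase II and on the cell cycle kinases, and inhibits it. All libraries come from this 1 line, at 1 dose and 1 time, and the labels do not say that the replicates were separate cultures, so p-values measure the spread between these libraries.

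Methylation is copied at each cell division, when UHRF1 binds hemimethylated DNA behind the replication fork and DNMT1 methylates the new strand. DNMT3A and DNMT3B place methyl groups on DNA that carried none, and both matter in blood cells, where DNMT3A and TET2 are genes often mutated in leukemia. Removal goes through the TET enzymes, which convert 5-methylcytosine to hydroxymethyl, formyl and carboxyl forms, and through TDG, which cuts out the formyl and carboxyl forms so that base excision repair can restore cytosine.

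The DMSO-treated libraries held between 11015480 and 11164840 counts, and the THZ1-treated libraries held fewer, between 7876402 and 8314306. Mitochondrially encoded genes took 4.32 to 4.37% of counts with DMSO and 12.6 to 13.6% with THZ1. Levels below are CPM, counts divided by library size, after TMM scaling, which is a scaling that takes most genes as unchanged, and a value of 3 counts in a library was taken as the limit of detection. All 12 of the B cell precursor markers were measured, with a summed level of 4093 to 4247 CPM with DMSO and of 2134 to 2209 CPM with THZ1, and 9 of them fell while 2 rose, 1 of which, RAG1, lost its call in 5 of 6 fits with 1 library left out, with library sizes alone, without a filter and in the FPKM. Over all genes 41.1% were lower and 43.5% were higher. The summed T cell markers reached at most 0.969 CPM. Among 5 myeloid markers the summed level was 3.88 to 4.59 CPM with DMSO and 17.3 to 18.4 CPM with THZ1, among 5 erythroid markers 0.164 to 0.422 and 2.76 to 3.60 CPM, and among 5 stromal and epithelial markers 3.20 to 4.55 and 15.8 to 16.2 CPM. Few genes made most of these sums with THZ1. The means were 8.71 CPM for CD14, 6.08 for CSF1R, 2.65 for KLF1 and 15.7 for COL1A1. The myeloid marker LYZ was lower (log2 fold change −0.83), and MPO was not called. The call of LYZ was lost with DESeq2, RLE or upper quartile factors and a replicate block. It was also lost without DMSO replicate 1, DMSO replicate 2, THZ1 replicate 1 or THZ1 replicate 2. The part of these shifts in the results below was not tested. In bulk RNA, fewer cells with a transcript and less of the transcript per cell cannot be told apart.

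In relative level, the transcripts of TDG, DNMT1 and DNMT3B were lower with THZ1, whereas that of TET2 was higher in the counts. TDG had the largest change, to 22.1% of its level with DMSO, and DNMT1 fell to 53.6%. DNMT3A and TET3 were only slightly lower, and TET1 was close to the limit of detection. Of the 8 genes listed, 6 passed the filter on low counts and were tested. Of these 6, 5 were lower and 1 was higher at an adjusted p-value below 0.05 (edgeR quasi-likelihood test, Benjamini-Hochberg adjustment), where 41.1% of the 16622 genes tested were lower and 43.5% were higher. When the fold change also had to reach 1.5 on the log2 scale, the threshold of the study, 1 of the 6 was lower and 0 were higher, and over all genes 12.9% were lower and 24.6% were higher. The libraries of the 2 treatments did not overlap for 5 of the 6, and they did not overlap for 84.7% of all genes tested. The median log2 fold change of the 6 was −0.39, and that of all genes was 0.03. The number lower fell from 5 to 3 with RLE or upper quartile factors, DESeq2, a filter of 10 counts in all libraries, or DMSO replicate 1 left out, and the genes in question were DNMT3A and TET3.

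**Figure D1:**
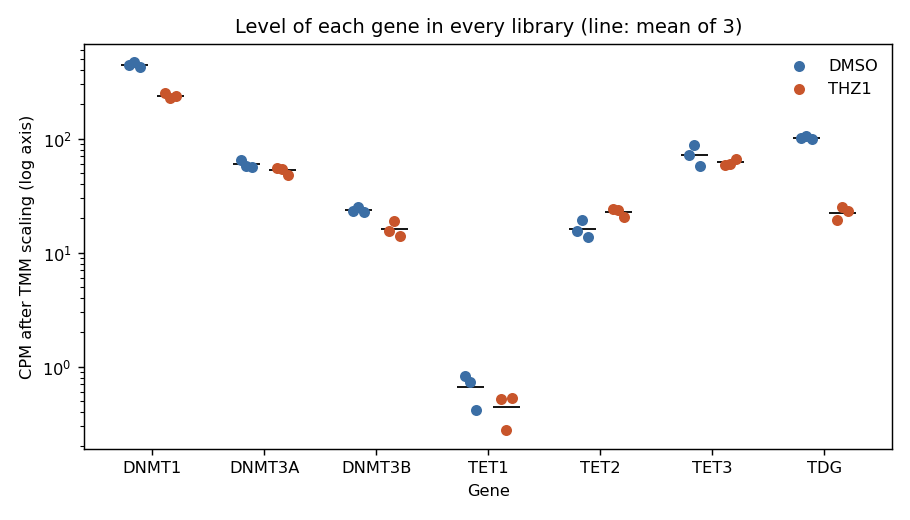
Level of the 7 matched genes in every library, in CPM after TMM scaling on a log axis, with the 3 DMSO-treated libraries in blue, the 3 THZ1-treated libraries in orange and a line at each mean. TDG separates most, from 98.3 or more with DMSO to 24.9 or less with THZ1, whereas the TET3 and TET1 libraries of the 2 treatments overlap.

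Sequences are shown for TDG and TET2, the genes with the lowest and the highest fold change among those tested, because the DNA upstream of both holds the same E-box, CACGTG, a motif bound by MYC and related factors. The stretches are from RefSeq's promoter table and were read at their single exact match in GRCh37, 5′ to 3′ on the plus strand, and bases covered by an annotated exon of the gene were left out. Capitals mark the E-box.
TDG, chr12:104359400-104359599: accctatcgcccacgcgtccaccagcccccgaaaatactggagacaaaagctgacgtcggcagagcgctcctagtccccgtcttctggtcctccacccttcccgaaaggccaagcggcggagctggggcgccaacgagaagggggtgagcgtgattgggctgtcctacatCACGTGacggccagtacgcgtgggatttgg
TET2, chr4:106066782-106067031: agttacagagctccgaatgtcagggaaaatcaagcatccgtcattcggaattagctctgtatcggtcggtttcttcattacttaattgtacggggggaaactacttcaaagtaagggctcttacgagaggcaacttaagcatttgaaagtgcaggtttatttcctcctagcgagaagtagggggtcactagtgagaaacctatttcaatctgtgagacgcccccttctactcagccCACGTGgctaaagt
The E-box begins 80 bases before the RefSeq start in TDG and 14 bases before it in TET2, which has it in 1 of its 2 upstream windows. In windows of 250 bases before the start, searched on both strands, TET3 held CACGTG in 1 of 2, at 67 and 27 bases before the start. DNMT3A held it in 2 of 6, but these 2 windows overlap and share the same single site. The windows of DNMT1, DNMT3B and TET1 did not hold these letters. Of 35116 such windows over all genes, 6.34% held it. The E2F motifs TTTCCCGC, TTTCGCGC, TTTGCCGC and TTTGGCGC were found in 2 of 3 windows of UHRF1 and in none of the other genes, against 2.79% of all windows. The window of DNMT1 held 21 CpG dinucleotides, that of TDG 22 and that of DNMT3B 3, against a median of 11 over all windows. A match of letters is a description of the sequence, and binding of any factor to these stretches was not tested.

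Among the methyltransferases, DNMT1, the maintenance enzyme, had the highest level. DNMT1 (ENSG00000130816) lies on the minus strand at chr19:10244018-10341962 in GRCh37. Its levels were 439, 466 and 422 CPM in the DMSO-treated libraries and 249.98, 226 and 235 CPM in the THZ1-treated libraries. Every THZ1-treated library was below every DMSO-treated library, with means of 442 ± 22.5 CPM and 237 ± 12.2 CPM (SD, n = 3 each). The log2 fold change was −0.90 (SE 0.07, 95% interval −1.04 to −0.76, adjusted p = 1.7e-13, edgeR), and 25.0% of all genes tested had a lower one. Exons of DNMT1 share 83 bases with S1PR2 on the same strand, a gene with 228 counts over all 6 libraries against 1631 to 5687 counts of DNMT1 in each library.

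DNMT3B (ENSG00000088305, plus strand, chr20:31350191-31397165), a de novo methyltransferase, fell by less. It was measured at 23.1, 25.0 and 22.7 CPM with DMSO and at 15.4, 19.0 and 13.9 CPM with THZ1. The treatments did not overlap, although the THZ1-treated libraries were more spread, with a mean of 16.1 ± 2.60 CPM against 23.6 ± 1.22 CPM (SD, n = 3 each). The log2 fold change was −0.56 (SE 0.13, 95% interval −0.81 to −0.30, adjusted p = 0.000183, edgeR).

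DNMT3A (ENSG00000119772, minus strand, chr2:25450724-25565459), the other de novo enzyme, was at the border of the test. Its levels were 64.9, 57.9 and 56.8 CPM with DMSO and 55.2, 54.5 and 48.0 CPM with THZ1. The lowest DMSO-treated library was just above the highest THZ1-treated library, with means of 59.9 ± 4.39 and 52.6 ± 3.99 CPM (SD, n = 3 each). The log2 fold change was −0.19 (SE 0.09, 95% interval −0.37 to −0.01, adjusted p = 0.0499, edgeR). This call was lost with RLE factors (−0.12, adjusted p = 0.207, edgeR), with DESeq2 (−0.12, adjusted p = 0.283) and without DMSO replicate 1 (−0.14, adjusted p = 0.214, edgeR) or THZ1 replicate 3 (−0.14, adjusted p = 0.212, edgeR), and the value was 0.01 with upper quartile factors. It was −0.44 with library sizes alone (adjusted p = 7.2e-05, edgeR) and −0.42 in the FPKM (adjusted p = 0.00626, limma).

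TET2 (ENSG00000168769, plus strand, chr4:106067032-106200973) had 187, 235 and 164 counts in the DMSO-treated libraries and 184, 171 and 154 counts in the less deeply sequenced THZ1-treated libraries. After scaling these were 15.5, 19.3 and 13.8 CPM with DMSO and 24.2, 23.7 and 20.6 CPM with THZ1. All THZ1-treated libraries were above all DMSO-treated libraries, with means of 22.8 ± 1.95 and 16.2 ± 2.78 CPM (SD, n = 3 each). The log2 fold change was 0.49 (SE 0.13, 95% interval 0.23 to 0.76, adjusted p = 0.000965, edgeR).

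The direction of TET2 turned with the table used. In the deposited FPKM values, fragments divided by transcript length and library size that were made by another tool than the counts, TET2 stood at 3.53, 4.06 and 3.35 with DMSO and at 2.60, 2.50 and 2.19 with THZ1. There every THZ1-treated library was the lower one, with a difference of −0.44 on the scale of log2(FPKM + 1) (SE 0.13, adjusted p = 0.0183, limma). With library sizes alone, without TMM, the counts gave 0.24 (adjusted p = 0.0951, edgeR). The deposited FPKM also put all genes lower by a median of 0.26 relative to the TMM-scaled counts. Of 10799 genes called in both tables, 111 (1.03%) were higher in the counts and lower in the FPKM, as TET2 was, and 0 were the reverse. Of the members, 6 were in the FPKM table and all 6 were lower there at an adjusted p below 0.05 (limma), where 44.6% of 16730 genes were lower and 35.9% were higher.

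TET3 (ENSG00000187605, plus strand, chr2:74212037-74335303), the TET gene with the highest level, had 72.6, 87.6 and 57.6 CPM with DMSO and 59.3, 59.7 and 66.4 CPM with THZ1. DMSO replicate 3 was below all THZ1-treated libraries, so the treatments overlapped, and DMSO-treated libraries ranged widely (72.6 ± 15.03 against 61.8 ± 4.02 CPM, SD, n = 3 each). The log2 fold change was −0.23 (SE 0.10, 95% interval −0.45 to −0.02, adjusted p = 0.0395, edgeR). It was −0.10 without DMSO replicate 2 (adjusted p = 0.295, edgeR), and the call was also lost without DMSO replicate 1 (−0.25, adjusted p = 0.0548, edgeR), THZ1 replicate 1 (−0.21, adjusted p = 0.109, edgeR) or THZ1 replicate 2 (−0.22, adjusted p = 0.101, edgeR), with RLE factors (−0.16, adjusted p = 0.139, edgeR) and with DESeq2 (−0.16, adjusted p = 0.225). It was −0.48 with library sizes alone (adjusted p = 0.000252, edgeR) and −0.41 in the FPKM (adjusted p = 0.0305, limma). Exons of TET3 share 390 bases with the noncoding gene ENSG00000235499 on the same strand.

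TET1 (ENSG00000138336, plus strand, chr10:70320094-70454244) was barely detected. It had 10, 9 and 5 counts in the DMSO-treated libraries and 4, 2 and 4 counts in the THZ1-treated libraries, and 1 of the latter was under the limit of 3 counts. In CPM, which allow for depth, these were 0.827, 0.738 and 0.422 with DMSO and 0.526, 0.277 and 0.535 with THZ1, so the treatments overlapped. TET1 did not pass the filter and is not listed in the FPKM table. Fitted without a filter its log2 fold change was −0.64 (SE 0.66, adjusted p = 0.397, edgeR), so no difference was detectable at this depth.

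TDG (ENSG00000139372, plus strand, chr12:104359600-104382652), the glycosylase that removes formylcytosine and carboxylcytosine as well as mismatched thymine, was the gene with the largest change. Its counts were 1217, 1290 and 1165 with DMSO and 146, 180 and 175 with THZ1. In CPM these were 100.6, 105.7 and 98.3 against 19.2, 24.9 and 23.4, with means of 102 ± 3.80 and 22.5 ± 2.96 CPM (SD, n = 3 each). The treatments were far apart in relation to the spread within either one. The log2 fold change was −2.18 (SE 0.10, 95% interval −2.37 to −1.98, adjusted p = 1.6e-19, edgeR), a 4.52-fold lower level, and 5.30% of all genes tested had a lower one. The pseudogene TDGP1 had 1, 3 and 1 counts with DMSO and 0 in each THZ1-treated library.

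**Figure D2:**
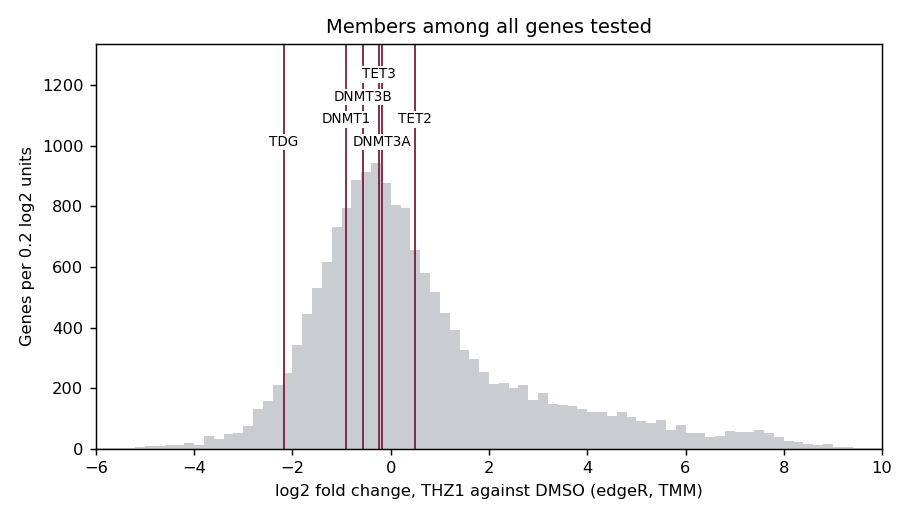
Histogram of the log2 fold changes of the 16622 genes tested, THZ1 against DMSO, with a line at each of the 6 members tested. TDG at −2.18 lies in the lower tail, with 5.30% of genes below it, whereas the other 5 lie between −0.90 and 0.49 in the bulk of the genes.

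**Figure D3:**
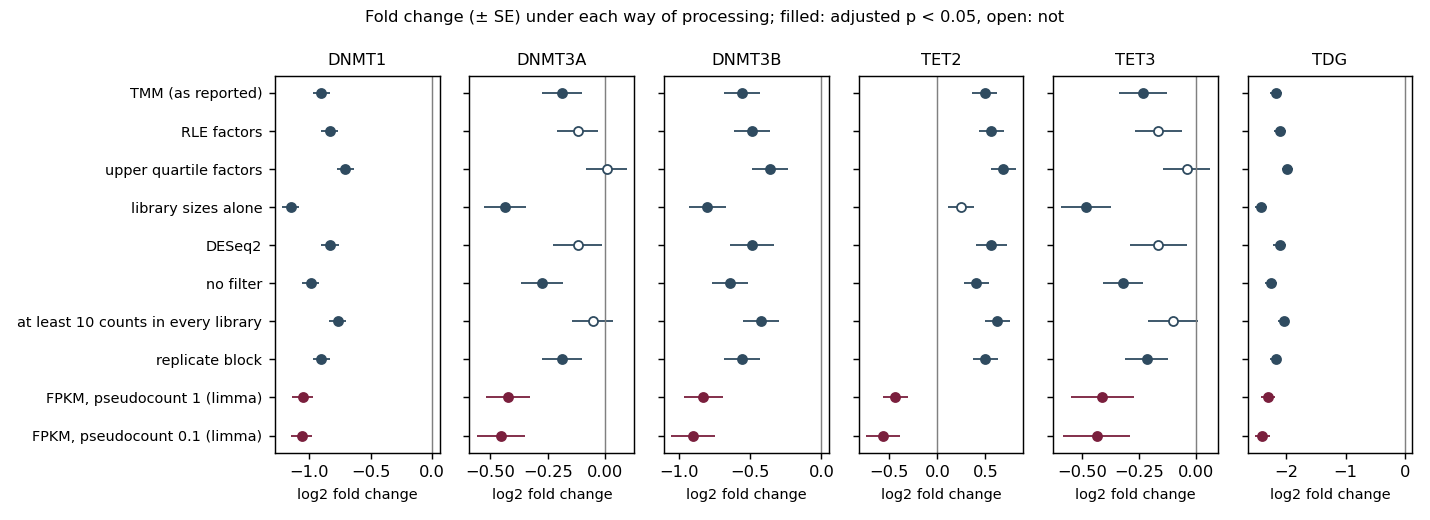
Log2 fold change with its SE for the 6 members tested, under TMM and 9 other ways of processing, with FPKM fits in red, filled points for an adjusted p below 0.05 and open points for the others. DNMT1, DNMT3B and TDG stay below 0 and filled throughout, DNMT3A and TET3 lose their call in 4 settings each, and TET2 is above 0 in the counts and below 0 in the FPKM.

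Levels of different genes were compared per length, in the deposited FPKM. With DMSO the order was DNMT1 (130 ± 13.7), TDG (58.7 ± 3.83), TET3 (16.9 ± 3.04), DNMT3B (14.7 ± 0.556), DNMT3A (14.3 ± 0.941) and TET2 (3.65 ± 0.367 FPKM, SD, n = 3 each). The ranges of TET3 and DNMT3B overlapped, as did those of DNMT3B and DNMT3A, and the latter 2 changed places when CPM per kb of exon was used instead. With THZ1 the order was DNMT1 (62.1 ± 3.27), TET3 (12.3 ± 0.940), TDG (11.1 ± 1.69), DNMT3A (10.5 ± 0.915), DNMT3B (7.91 ± 1.57) and TET2 (2.43 ± 0.217 FPKM, SD, n = 3 each). TDG had thus come down from a level above that of TET3 to one whose range overlapped those of TET3 and DNMT3A, while DNMT1 stayed first and TET2 last under both treatments.

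Ratios within a library do not depend on the scaling between libraries. Of 6 pairs compared, 5 did not overlap between treatments, each with an exact permutation p of 0.1, the smallest that 3 libraries against 3 allow, and 0.12 after Benjamini-Hochberg adjustment over the 6 (two-sided), so the design could not reach 0.05. Among single genes tested, 84.7% did not overlap in CPM, and the share among other pairs of genes was not computed. The ratios are thus given as descriptions. TDG lost ground to DNMT1, with a log2 ratio of counts of −2.12 ± 0.02 with DMSO and −3.40 ± 0.27 with THZ1. DNMT3A gained on DNMT1, from −2.88 ± 0.13 to −2.17 ± 0.12, and on DNMT3B, from 1.34 ± 0.14 to 1.71 ± 0.17. TET3 came down relative to TET2, from 2.15 ± 0.09 to 1.44 ± 0.22, although the same ratio in FPKM moved by 0.15 in the other direction. TET2 relative to TET1 was at 4.56 ± 0.38 and 5.52 ± 0.52, a value that rests on the few counts of TET1. TET3 relative to TET1 was at 6.72 ± 0.30 and 6.96 ± 0.42 and overlapped (exact permutation test, p = 0.6, adjusted p = 0.6; SD, n = 3 for all ratios).

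**Figure D4:**
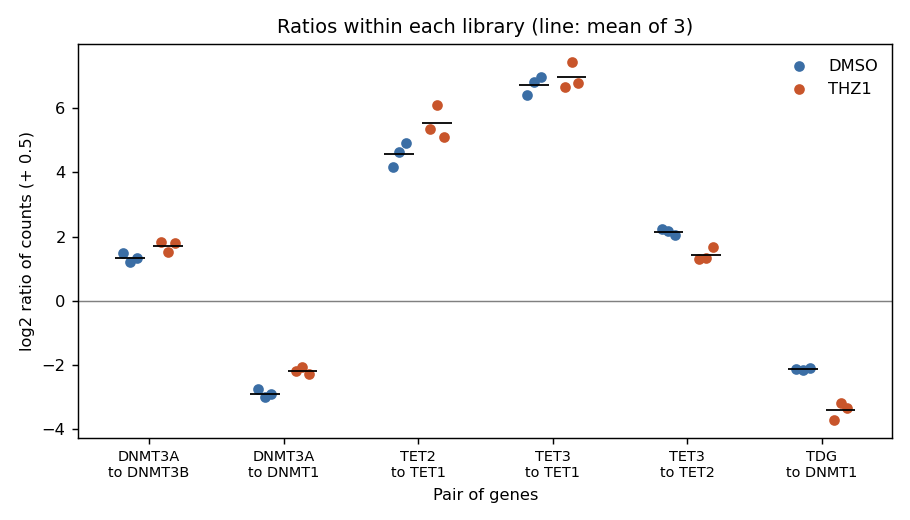
Log2 ratio of counts (0.5 added) of 6 pairs of genes within each library, with DMSO in blue, THZ1 in orange and a line at each mean of 3. The ratio of TDG to DNMT1 is near −2.12 in all DMSO-treated libraries and between −3.70 and −3.18 with THZ1, and TET3 to TET1 is the pair whose treatments overlap.

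The partners of maintenance methylation were mostly lower. Of 9 genes, all tested, 7 fell and 2 rose, with a median log2 fold change of −0.91. The shares of all genes were 41.1% lower and 43.5% higher. PCLAF, a PCNA-binding protein of the replication fork, fell by 2.40 (SE 0.10, adjusted p = 1.3e-20, edgeR), and HELLS, a chromatin remodeller needed for methylation, fell by 1.36 (SE 0.08, adjusted p = 7.5e-17, edgeR). CDCA7, which activates HELLS, was at 0.30 (SE 0.07, adjusted p = 0.000122, edgeR), but at 0.05 with library sizes alone and at −0.003 in the FPKM, where it did not pass. UHRF2, a relative of UHRF1, rose from 91.5 ± 5.38 to 215 ± 4.09 CPM (SD, n = 3 each), or 1.23 on the log2 scale (adjusted p = 1.9e-16, edgeR).

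Of 16 genes of S phase, in which methylation is copied, 14 fell and 1 rose, with a median of −1.48, and 8 of those that fell were past a log2 fold change of −1.5. Among all genes tested, 41.1% were lower, 43.5% were higher and 12.9% were lower past −1.5. E2F1, a transcription factor of S phase entry, fell by 2.83 and CDC45, part of the replicative helicase, by 2.65 on the log2 scale. The helicase subunits MCM5 and MCM2 were at −0.34 and 0.48, the former lower and the latter higher at an adjusted p below 0.05. The subunits MCM3, MCM4, MCM6 and MCM7 were lower by that threshold, at −2.17, −0.58, −2.28 and −0.55. DNMT1 was at −0.90, and PCNA, a maintenance partner named after its value was seen, was at −0.91. The part of S phase in these values was not tested.

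All 6 genes listed for methyl donor supply, from the methionine cycle and its relatives, fell, with a median of −1.27, where 41.1% of all genes were lower. AHCYL1, a relative of the enzyme AHCY that clears the product of methyl transfer, fell by 1.62 and the methionine synthase MTR by 1.57, whereas MTRR, which reactivates MTR, fell by 0.77 and MAT2A, the enzyme that makes S-adenosylmethionine, by 0.24 on the log2 scale. MAT2A did not pass with upper quartile factors (−0.042) or the stricter filter (−0.10).

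Of 12 genes that guide de novo methylation, all tested, 5 rose and 6 fell, shares near those of all genes (43.5% higher and 41.1% lower), and the median was −0.20. Without DMSO replicate 1, 3 rose, since SETD2 (0.18, adjusted p = 0.0925, edgeR) and KDM1A (0.17, adjusted p = 0.0668, edgeR) no longer passed. KDM1A was also at −0.057 with library sizes alone. The heterochromatin protein CBX5 fell by 1.66 and the histone H3 lysine 9 methyltransferase SUV39H2 by 1.49, while another H3 lysine 9 methyltransferase, EHMT2, rose from 194 ± 7.35 to 611 ± 26.2 CPM (SD, n = 3 each), or 1.66 on the log2 scale. DNMT3L, the catalytically inactive partner of DNMT3A and DNMT3B, had 0, 3 and 2 counts with DMSO and 23, 22 and 12 with THZ1. Its level with THZ1 was 2.56 ± 0.826 CPM (SD, n = 3), which was low beside DNMT3A and DNMT3B. DNMT3L passed the filter on low counts only through the THZ1-treated libraries, so its place among the 5 that rose is not support for a change. With at least 10 counts required in every library it was not tested, and 4 genes of the list rose.

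Of 12 regulators of the TET enzymes, 11 were tested, and 8 fell and 2 rose, with a median of −0.72. For all genes the shares were 41.1% lower and 43.5% higher. IDH2, which makes the cosubstrate 2-oxoglutarate, fell from 318 ± 19.4 to 69.9 ± 1.60 CPM (SD, n = 3 each; −2.19 on the log2 scale, adjusted p = 2.1e-22, edgeR), a change close in size to that of TDG. CUL4A, a ubiquitin ligase scaffold, fell by 1.24. OGT, which binds TET proteins, and D2HGDH, which clears 2-hydroxyglutarate, an inhibitor of TET enzymes, rose by 0.76 and 1.02 on the log2 scale.

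Excision repair genes moved in both directions. Of 13 tested, 7 fell and 3 rose, with a median of −0.39, where 41.1% of all genes were lower and 43.5% were higher. The glycosylases NTHL1 and UNG fell by 2.08 and 1.77, whereas the glycosylases SMUG1 and NEIL1 rose by 0.53 and 1.66 on the log2 scale. SMUG1 did not pass with library sizes alone (0.29) or in the FPKM, where it was at −0.097. MBD4, which like TDG removes thymine from G:T mismatches, was at −0.39 (SE 0.08, adjusted p = 9.2e-05, edgeR). The downstream genes APEX1, POLB and PARP1 did not pass the test, with log2 fold changes of −0.04, 0.11 and −0.09.

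Of 13 genes listed as readers of CpG sites or relatives of such readers, 12 were tested, and 6 rose and 5 fell. The median was 0.03, and shares and median were near those of all genes (43.5% higher and 41.1% lower). The calls of ZBTB4 and MBD5 were each lost in 4 of 6 fits with 1 library left out. MBD2 and KDM2B fell by 1.16 and 1.14, while MBD6 and CXXC1 rose by 1.55 and 1.82 on the log2 scale.

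Germline genes that promoter methylation is known to keep silent in somatic cells had low counts under both treatments. Of 21 listed, 13 had 0 counts in all libraries, and 1 passed the filter. The summed level of the 21 was 2.87 to 4.05 CPM with DMSO and 1.80 to 3.16 CPM with THZ1. The gene tested, SYCP3, had 24, 17 and 37 counts with DMSO and 10, 5 and 6 with THZ1, and its log2 fold change was −1.19 (SE 0.41, adjusted p = 0.00811, edgeR). This call was lost without DMSO replicate 3 (−0.85, adjusted p = 0.0817, edgeR), and SYCP3 was not tested with the stricter filter of 10 counts in each library.

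**Figure D5:**
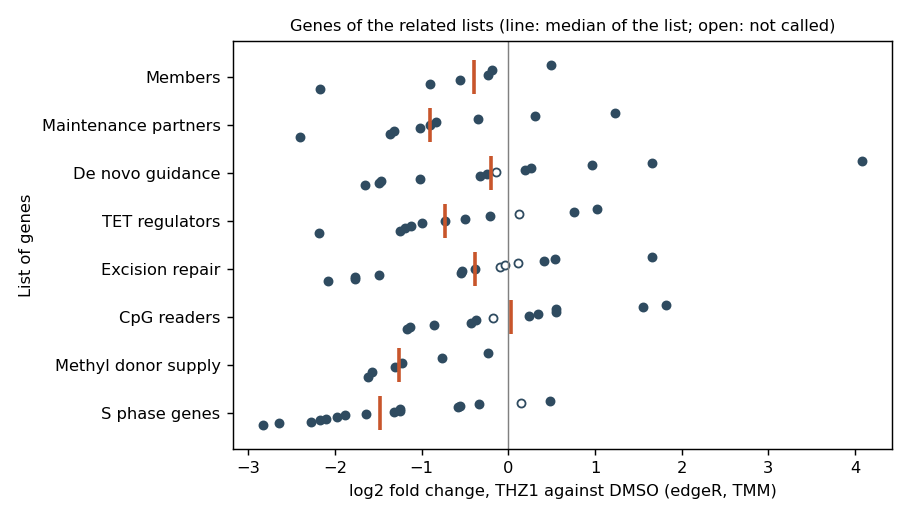
Log2 fold change of each gene tested in the members and in 7 related lists, with a line at each median, filled points for genes at an adjusted p below 0.05 and open points for the others. The medians of the S phase genes and of methyl donor supply are the lowest, at −1.48 and −1.27, and that of the CpG readers is 0.03.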

How the data were processed

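RNA-SEQ counts and FPKM of 3 DMSO-treated and 3 THZ1-treated NALM6 libraries were used. The authors trimmed reads with cutadapt, mapped them to GRCh37 with STAR and deposited raw counts per gene from HTSeq, and the annotation and strand setting are not given in the sources used here, so reads of overlapping genes may be shared. The authors also deposited log2 values of FPKM from RSEM for 16730 genes, read here as log2(FPKM + 1), although the tests had been planned for linear FPKM. The sorted values of libraries of one treatment differed by a median of 0.00150 to 0.00170 in that table, so their spread may be too small. Its fold changes, p-values and FDR are the authors' comparison and were not used.

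Members and lists were chosen with earlier results of these data known. Named genes are all members and the 2 highest and 2 lowest called genes of each list. PCNA, MBD4, SETD2, KDM1A, RAG1, ZBTB4, MBD5, APEX1, POLB, PARP1, MCM3, MCM4, MCM6 and MCM7 were added after their values were seen. Genes passed edgeR's filterByExpr (minimum count 10, minimum total 15), were scaled by TMM and tested by the two-sided quasi-likelihood test, with adjustment over 16622 genes. Ratios of counts (0.5 added) were compared by exact permutation. The planned ratio of DNMT1 to UHRF1 could not be computed. The pipeline was tested on simulated data.

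Alternatives were upper quartile and RLE factors, unscaled library sizes, DESeq2, no filter, at least 10 counts in every library, a replicate block, each library left out, and limma on FPKM with pseudocounts 1 and 0.1 or a mean of at least 1. Replicates differed by more than sampling noise (chi-square per gene 1.79 to 8.61). R 4.3.3, edgeR 4.0.16, limma 3.58.1, DESeq2 1.42.0, Python 3.11.15, scipy 1.17.1 and matplotlib 3.10.9 were used.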

Additional observations from a re-analysis of the deposited data

How the results depend on the processing

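DNMT1, DNMT3B and TDG kept their direction and their call in all 16 alternatives, with ranges of −1.15 to −0.71, −0.90 to −0.36 and −2.42 to −1.98. DNMT3A was at −0.12 with RLE factors and DESeq2, −0.055 with a minimum of 10 counts per library and 0.0057 with upper quartile factors, but at −0.44 with library sizes alone, −0.27 without a filter and −0.45 to −0.42 in the FPKM, and from −0.24 to −0.14 with 1 library left out. TET3 was at −0.16 with RLE factors and DESeq2, −0.039 with upper quartile factors and −0.10 with a minimum of 10 counts per library, but at −0.48 with library sizes alone, −0.32 without a filter and −0.44 to −0.41 in the FPKM, and from −0.39 to −0.10 with 1 library left out. TET2 was at 0.24 with library sizes alone, reversed to −0.44, −0.57 and −0.44 in the FPKM with pseudocounts of 1 and 0.1 and a mean of at least 1, and was at 0.37 to 0.62 with 1 library left out. The cause was not tested. The log2 fold change of each gene was also compared with its value under TMM. The median of these differences per gene was 0.19 with upper quartile factors and −0.25 with library sizes alone. It was 0.13 with the minimum of 10 counts per library and −0.26 in the FPKM.

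Members called lower numbered 3 with RLE or upper quartile factors, with DESeq2 and with a minimum of 10 counts per library, and 3 to 5 with 1 library left out. Members called higher numbered 0 with library sizes alone and in each FPKM fit. Of all genes, those called that also reached 1.5 on the log2 scale were 4088 higher and 2142 lower, against 6996 higher without a filter and 1821 higher and 1178 lower with a minimum of 10 counts per library. The share of calls that were higher was 51.4%, against 44.2% with library sizes alone, 44.6% in the FPKM and 57.2% with upper quartile factors. Maintenance partners called higher numbered 1 with library sizes alone and in each FPKM fit. Genes of de novo guidance called higher numbered 3 in those same fits and 3 to 5 with 1 library left out. Excision repair genes called higher numbered 5 with upper quartile factors and 1 with library sizes alone, CpG readers called lower 3 and S phase genes called higher 2 with upper quartile factors. Germline genes called lower numbered 0 with a minimum of 10 counts per library and 0 to 1 with 1 library left out.

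The log2 ratio of TET3 to TET1 changed by 0.24, and by −0.00023 without THZ1 replicate 2, a range of −0.00023 to 0.391 with 1 library left out, and that of TET3 to TET2 reversed to 0.15 in the FPKM. In CPM per kb DNMT3A was in place 4 and DNMT3B in place 5 with DMSO. Same-numbered libraries showed little shared deviation (correlations −0.00400, 0.000969 and 0.0206), which does not exclude that they were paired. A replicate block gave −0.90, −0.19, −0.56, 0.50, −0.22 and −2.18 for DNMT1, DNMT3A, DNMT3B, TET2, TET3 and TDG, with 7181 genes higher and 6786 lower. Of 500 alternative values of 47 results, 451 kept their direction and side of the threshold or moved little. Depth limits TET1, which had at most 10 counts in a library, and the germline genes, of which 1 passed the filter.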
